A study of Mus musculus with 2 samples.

Results

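The genes described here make charged transfer RNA (tRNA). They are 20 genes for aminoacyl-tRNA synthetases that work in the cytosol (2 of them, Gars and Kars, also supply mitochondria), 14 genes for synthetases that work only in mitochondria, and Trnt1, which adds the CCA end to tRNA. The 35 genes form a list of names that uses no measured value as a criterion, drawn up with earlier results of these data known. 34 of them could be measured, of 17318 genes with a measurement among 17826 gene names on the arrays. Cars2, the mitochondrial cysteine enzyme, had no probe under its own name.

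Binding of CREM, a relative of the transcription factor CREB that is abundant in haploid male germ cells, was measured by chromatin immunoprecipitation and promoter microarrays. The chromatin came from germ cells of adult male C57BL/6 mice, taken from 5 testes and fixed in 1% formaldehyde for 10 min; the labels name no mutation or treatment. Whether both arrays were hybridised with the same precipitates is not given in the sources used here. The CREM antibody (sc-440) precipitate carried Cy5 and the goat IgG precipitate, the negative control, carried Cy3. Each of 2 arrays held a different set of promoters and was hybridised 1 time, without duplicates or a dye swap, so that no p-value can be given and dye and antibody cannot be told apart. The germ cells were not sorted by stage, and precipitated DNA carries no marker by which the cell type could be checked.

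An aminoacyl-tRNA synthetase joins an amino acid to the tRNAs that read its codons, and every round of translation depends on it. Cytosol and mitochondria mostly use separate enzymes, all of them encoded by nuclear genes. The CCA end that Trnt1 adds is the place where the amino acid is attached. Haploid germ cells translate stored messenger RNA for a long time while their chromatin is being packed. CREM and its relatives recognise the cAMP response element (CRE), TGACGTCA, and its core, TGACG or CGTCA on the other strand.

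Each value is a log2 ratio of the CREM signal over the IgG signal, with the array's median at 0. A window is 3 neighbouring probes whose starts lie at most 500 bp apart, its value is the median of the 3, and each gene is given by its highest and its lowest window. A gene was called on the CREM side where its highest window reached 1 (2-fold). It was called on the IgG side where its lowest window reached -1. Control spots printed many times on each array had a median SD of 0.139 and 0.136 in log2, which is the only error that these data give and covers spots, not precipitates. Both arrays had 77.4% and 78.5% of probes well above background in the IgG channel and 96.3% and 95.5% in the CREM channel, so a high ratio often rests on a dim IgG spot. Positions on the arrays refer to build mm9, and whether a probe lies in an exon or an intron is not stated, since no mm9 annotation was used here.

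The sequences that the results turn on are the probes of Trnt1 and Yars2, whose highest windows were bright in both channels, the upstream and start probes of Mars2, which carry both signs side by side, and 3 promoters with CRE cores. Among the probes, printed as the array file gives them with the strand not stated, capitals mark every CG and every whole core. The highest window of Trnt1 held these 3 probes, and none has a core.
Trnt1, chr6:106718611-106718667: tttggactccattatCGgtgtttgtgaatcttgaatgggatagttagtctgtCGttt
Trnt1, chr6:106718754-106718813: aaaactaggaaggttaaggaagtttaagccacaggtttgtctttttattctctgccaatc
Trnt1, chr6:106718868-106718923: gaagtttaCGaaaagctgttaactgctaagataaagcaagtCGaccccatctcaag
The highest window of Yars2 held these 3 probes, of which the middle one has a core.
Yars2, chr16:16302501-16302560: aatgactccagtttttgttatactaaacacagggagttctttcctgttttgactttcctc
Yars2, chr16:16302660-16302711: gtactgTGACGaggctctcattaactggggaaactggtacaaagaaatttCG
Yars2, chr16:16302766-16302825: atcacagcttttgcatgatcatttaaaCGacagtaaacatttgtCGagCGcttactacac
The highest window of Mars2 lay upstream of the start.
Mars2, chr1:55293302-55293361: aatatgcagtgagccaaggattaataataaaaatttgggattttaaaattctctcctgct
Mars2, chr1:55293432-55293491: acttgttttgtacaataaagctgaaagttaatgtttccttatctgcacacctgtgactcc
Mars2, chr1:55293631-55293690: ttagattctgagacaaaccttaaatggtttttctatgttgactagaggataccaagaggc
The next probes of Mars2 towards the start were these, and the second of them is the one with the lowest ratio of the gene.
Mars2, chr1:55293774-55293828: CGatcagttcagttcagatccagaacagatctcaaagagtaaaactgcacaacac
Mars2, chr1:55293961-55294005: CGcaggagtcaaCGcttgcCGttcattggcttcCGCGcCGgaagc
In the 250 bases before the start from RefSeq, build GRCm38.p6, capitals mark only the cores. Eprs has 3, Sars2 has 2, and Nars2 has 1. All of these were called on the CREM side, but members without such a call, such as Farsb, also have a core there.
Eprs, chr1:185362794-185363043, plus strand: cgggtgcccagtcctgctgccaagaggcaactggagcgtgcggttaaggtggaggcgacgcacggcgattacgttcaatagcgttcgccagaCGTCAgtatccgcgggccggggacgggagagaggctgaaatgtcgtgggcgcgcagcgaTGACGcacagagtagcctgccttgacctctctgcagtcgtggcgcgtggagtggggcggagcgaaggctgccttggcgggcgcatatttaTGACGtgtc
Sars2, chr7:28741718-28741967, plus strand: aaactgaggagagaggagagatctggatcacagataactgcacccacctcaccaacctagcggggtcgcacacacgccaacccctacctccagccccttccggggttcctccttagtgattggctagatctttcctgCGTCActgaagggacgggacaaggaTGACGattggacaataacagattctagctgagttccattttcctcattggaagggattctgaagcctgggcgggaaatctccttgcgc
Nars2, chr7:96951277-96951526, plus strand: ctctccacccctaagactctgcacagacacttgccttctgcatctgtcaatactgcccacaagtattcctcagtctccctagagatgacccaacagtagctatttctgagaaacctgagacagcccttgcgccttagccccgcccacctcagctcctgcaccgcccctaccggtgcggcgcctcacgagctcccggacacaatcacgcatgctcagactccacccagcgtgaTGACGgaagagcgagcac

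18 of the 34 measured genes (52.9%) were called on the CREM side, against 34.5% of all genes with a window. On the IgG side 6 were called (17.6%), against 33.7% of all genes, and 3 were called on both sides, against 12.1%. The median highest window was 1.06, against 0.77 over all genes. The synthetase genes thus lay above the arrays' background share for CREM and below it for IgG, and with 1 array for each gene neither difference has a test. On array 1, 11 of 19 were called on the CREM side (57.9%, against 33.3% of all genes there), and on array 2, 7 of 15 (46.7%, against 35.6%). On the IgG side the counts were 4 of 19 (21.1%, against 34.4%) and 2 of 15 (13.3%, against 32.9%). In 8 of the 34 genes (23.5%) the highest window was called and each of its 3 probes was bright (well above background) in CREM and IgG, against 9.8% of all genes. As a share of the called genes this was 44.4%, against 28.5%. Among genes with 12 to 21 windows, the middle range of the measured members, 36.2% had a CREM call and 29.4% an IgG call.

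**Figure D1:**
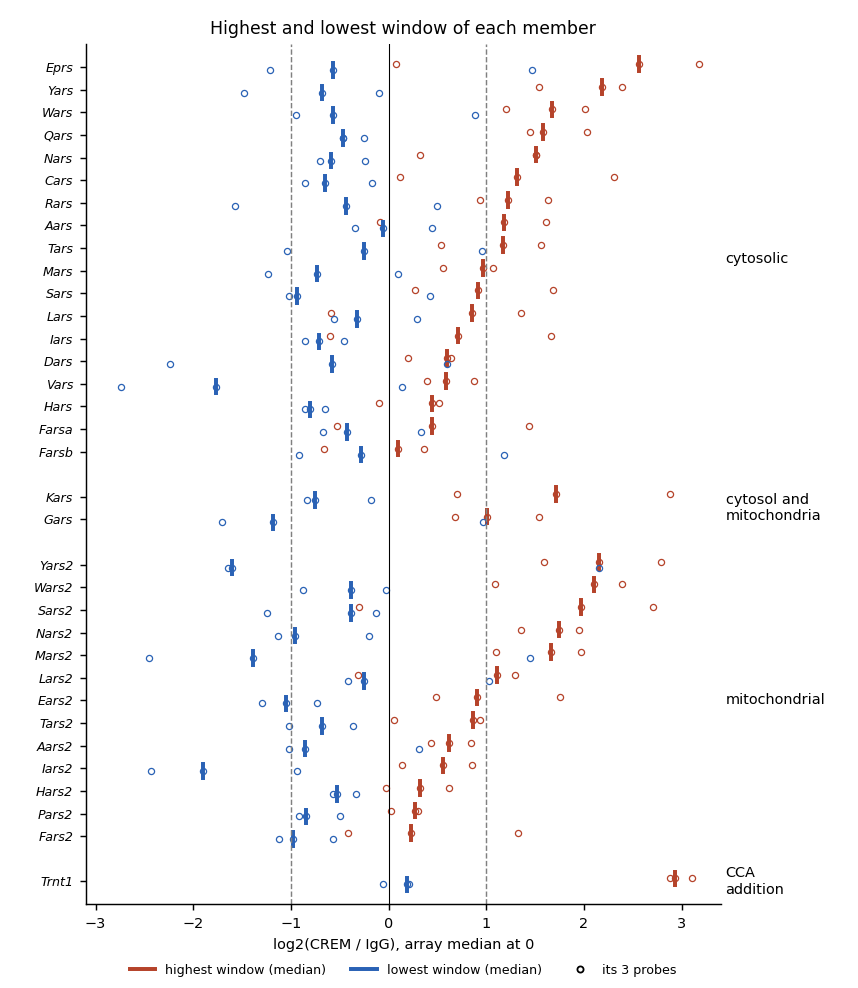
Highest (red) and lowest (blue) window of each of the 34 measured genes, grouped by where the enzyme works; open circles are the 3 probes of the window, bars their median, and the x axis is the log2 ratio of CREM over IgG with dashed lines at -1 and 1. The highest windows run from 0.10 in Farsb to 2.94 in Trnt1, and the lowest window of Trnt1 stays above 0 while those of Iars2, Vars and Yars2 lie below -1.5.

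Trnt1 had the highest window of the 34, at 2.94 (chr6:106718611-106718923), rank 29 among the genes of array 1. The 3 probes printed above had log2 ratios of 2.88, 2.94 and 3.11. Their IgG signals were 799, 3987 and 2038 and their CREM signals 5984, 31033 and 17898. All 3 were well above background in both channels and lay close together. Of its 21 windows 15 reached 1, and every window was above 0, the lowest at 0.19. Of all genes with 15 or more windows, 1.06% had every window above 0. Trnt1 was the only one of the 34 for which that held. It did not hold with within-array loess, where the lowest window of Trnt1 was -0.01, or with the authors' deposited values, at -0.0035. The region of called windows around the highest one had 6 probes over 722 bp, with a median of 2.81 and 1 probe below 0.

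**Figure D2:**
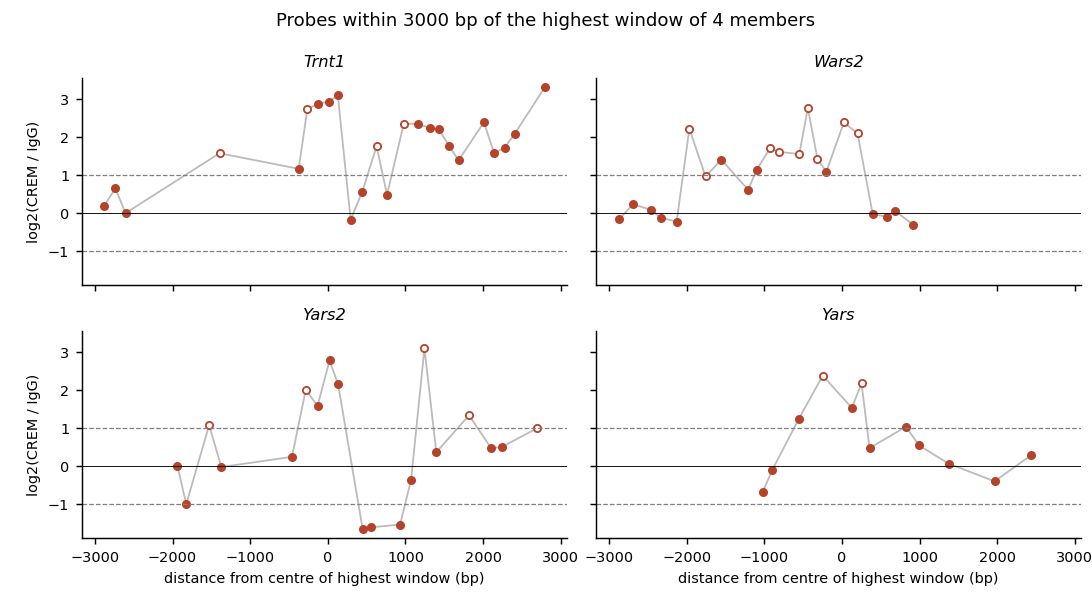
Probe log2 ratios of CREM over IgG against the distance in bp from the centre of the highest window, for Trnt1, Wars2, Yars2 and Yars, chosen after their values were seen; filled points were well above background in both channels, open points were not, and dashed lines mark -1 and 1. Trnt1 is high over most of the stretch shown, Wars2 has a block of high probes that are mostly open, and Yars2 drops from 2.16 to -1.64 between neighbouring probes.

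Of the 18 cytosolic enzymes 9 were called on the CREM side (50%, against 34.5% of all genes), led by Eprs, Yars, Wars and Qars. Eprs, which carries both the glutamate and the proline enzyme in 1 chain, reached 2.57 (chr1:187187399-187187723), with 15 of 22 windows at 1 or more. The probes of that window read 0.07, 3.18 and 2.57, with IgG signals of 5640, 381 and 398. The first probe was close to 0 and bright, and the other two were high, dimmer in IgG, and still above background. The window was centred 624 bp after the start. The gene was also high before its start: 4 probes between 1000 and 200 bp upstream had a mean of 2.30. The probes centred at -282, -172 and -19 bp read 3.09, 2.04 and 1.47. The last 2 lie in the printed promoter with its cores, and the first was not above background in IgG. Between these 2 high stretches the probes at 134 and 294 bp read -0.57 and -1.22.

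Yars, the tyrosine enzyme, had a highest window of 2.18 (chr4:128867658-128868212), centred 916 bp after its start. Its probes read 2.39, 1.54 and 2.18, with IgG signals of 80.5, 2457 and 262. Only the middle probe was above background in IgG, so the height of the other two rests on dim control spots. The start of S100pbp, which is read away from Yars, was 1240 bp from the centre of the same window at its nearest. Wars, the tryptophan enzyme, reached 1.67 with probes at 2.01, 1.21 and 1.67, of which the first alone was above background in IgG. Qars, the glutamine enzyme, reached 1.58, with probes at 1.58, 2.03 and 1.44 and all 3 bright. This window lay directly before and across the start, centred at -192 bp.

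The other called cytosolic genes were lower. Nars (asparagine) reached 1.51, Cars (cysteine) 1.31, Rars (arginine) 1.22, Aars (alanine) 1.18 and Tars (threonine) 1.17. In Nars the probes read 0.32, 1.51 and 1.51 and only the first was above background in IgG; with dim probes left out in either channel its highest window was -0.10. In Cars the probes read 2.31, 1.31 and 0.11, the first against an IgG signal of 64.9. Aars and Tars were modest but bright. The Aars window, centred at -473 bp, read 1.62, -0.09 and 1.18, and the first probe holds a core. The Tars window, centred at -458 bp, read 0.54, 1.56 and 1.17.

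The 9 cytosolic genes that were not called ran from just below the threshold to near 0. Mars (methionine) had 0.97 and Sars (serine) 0.91, against 1.17 for Tars just inside. Lars (leucine) had 0.85, Iars (isoleucine) 0.71, Dars (aspartate) 0.60 and Vars (valine) 0.58. Hars (histidine) had 0.45. The subunits of the phenylalanine enzyme had the smallest values: Farsa had 0.45 and Farsb 0.10. Both subunits of this enzyme were thus without a call, from 14 and 6 windows.

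The enzymes that serve both compartments were both called (2 of 2, beside 34.5% of all genes), on windows with dim IgG probes. Kars, the lysine enzyme, had 1.71 from probes at 0.70, 2.88 and 1.71, of which the last 2 had IgG signals of 64.4 and 61.9, not well above background. This window lay 17906 bp from the Kars start and its first probe is named for Adat1, a tRNA adenosine deaminase. Gars, the glycine enzyme, had 1.01, just inside the threshold, with probes at 0.68, 1.01 and 1.54 centred at -606 bp. The lowest window of Gars was -1.18, centred 127 bp after the start, so the same promoter was called on both sides.

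Of the 13 measured mitochondrial enzymes 6 had a CREM call (46.2%, against 34.5% of all genes) and 4 an IgG call (30.8%, against 33.7%). Yars2 (tyrosine) reached 2.16 (chr16:16302501-16302825) and its 3 probes, printed above, read 1.59, 2.78 and 2.16. The IgG signals were 369, 479 and 691 and the CREM signals 1127, 3340 and 3121. Each of the 3 was above background in IgG as in CREM. The probe with the core had the highest ratio. The next 2 probes read -1.64 and -1.60, which made the lowest window of Yars2 -1.60. Thus 1 probe took part in both the highest and the lowest window of this gene.

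Wars2 (tryptophan) had 2.1 and the longest called region of the 34 genes, 14 probes over 2416 bp with a median of 1.5. The median length of this region was 833 bp over the 18 called genes and 713 bp over all called genes, of which 3.33% had one of 2000 bp or more. In its highest window the IgG signals were 1381, 123 and 61.9, and only the first was above background. Sars2 (serine) had 1.97 from probes at 1.97, 2.71 and -0.31, of which the second was not above background in IgG. This window lies at the start that Sars2 shares with Mrps12, a mitochondrial ribosomal protein gene read in the other direction: the centre was 65 bp before the Sars2 start and 82 bp before that of Mrps12. The first probe is named for Mrps12. Both cores of the printed promoter lie between these genes, and the ratio cannot be given to either.

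Nars2 (asparagine) had 1.74, with probes at 1.74, 1.35 and 1.95 that were all bright, centred at -285 bp. Mars2 (methionine) had 1.67, with the 3 printed probes at 1.10, 1.67 and 1.97, centred at -560 bp. The next probe, at -220 bp, read 1.45, and the one at -38 bp read -2.45. The IgG signals of these last 2 were 744 and 667 and the CREM signals 2067 and 124: the control signals were close and the CREM signals of these printed neighbours were far apart. Their GC content also differed, at 41.8% and 64.4%. With the GC trend removed the probe at -38 bp read -1.39. Lars2 (leucine) had 1.11, from probes at -0.31, 1.30 and 1.11.

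Of the mitochondrial genes without a CREM call, Ears2 (glutamate) had 0.90 and Tars2 (threonine) 0.86. Aars2 (alanine) had 0.62, Iars2 (isoleucine) 0.56 and Hars2 (histidine) 0.32. Pars2 (proline) had 0.27 and Fars2 (phenylalanine) 0.23. For Cars2, 9 probes within 2000 bp of its RefSeq start were present under the name of its neighbour Ing1. They had a median of -0.31 and ran from -1.73 to 0.70, and the highest of their 5 windows was 0.22. By position, therefore, Cars2 too had no window at 1.

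Leaving aside Eprs, which serves 2 amino acids, 10 amino acids have 1 cytosolic and 1 mitochondrial enzyme among the measured genes. Both were called for asparagine, tryptophan and tyrosine, 1 of the 2 was called for 5 amino acids, and neither was called for histidine and isoleucine. In the tyrosine pair the values were 2.18 and 2.16, in the tryptophan pair 1.67 and 2.1 and in the asparagine pair 1.51 and 1.74. The serine and methionine pairs differed most in the mitochondrial direction, with 0.91 for Sars against 1.97 for Sars2 and 0.97 for Mars against 1.67 for Mars2. By the fold of the catalytic domain, 9 of 15 class I (60%) and 7 of 17 class II enzymes (41.2%) were called, beside 34.5% of all genes, leaving out Eprs, which has both folds, and Trnt1. Of the 8 enzymes of the multisynthetase complex 4 were called (50%), and of the 12 other cytosolic ones 7 (58.3%). The difference between these groups has no test.

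The IgG side was led by Iars2 at -1.90, Vars at -1.77 and Yars2 at -1.60, followed by Mars2 at -1.38, Gars at -1.18 and Ears2 at -1.05. In Iars2 the probes read -0.94, -1.90 and -2.44, 289 bp after the start, with IgG signals of 32003, 1671 and 2094. All were bright in both channels. The Vars window lay near Vwa7, whose start was 988 bp away, and that of Ears2 lay 158 bp from the start of Ubfd1. Fars2 (-0.98), Nars2 (-0.95) and Sars (-0.94) fell just short. The 6 called windows had a GC content of 53.5% to 65.2%, and the 18 called on the CREM side 33.2% to 44.8%, with no overlap. Over all genes the medians were 59.9% for called windows of the IgG side and 40.2% for those of the CREM side, and the ranges overlapped (26.7% to 80% and 26.1% to 58.9%). The lowest window was richer in GC than the highest in 26 of the 34 genes (76.5%) and in 75.5% of all genes. With the median ratio of each GC step of 2% removed from every probe, 16 of the 18 remained called on the CREM side (all genes 30.8%), and on the IgG side Iars2 alone remained, at -1.09 (all genes 12.8%). The part of base composition in the ratios was not tested beyond this.

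**Figure D3:**
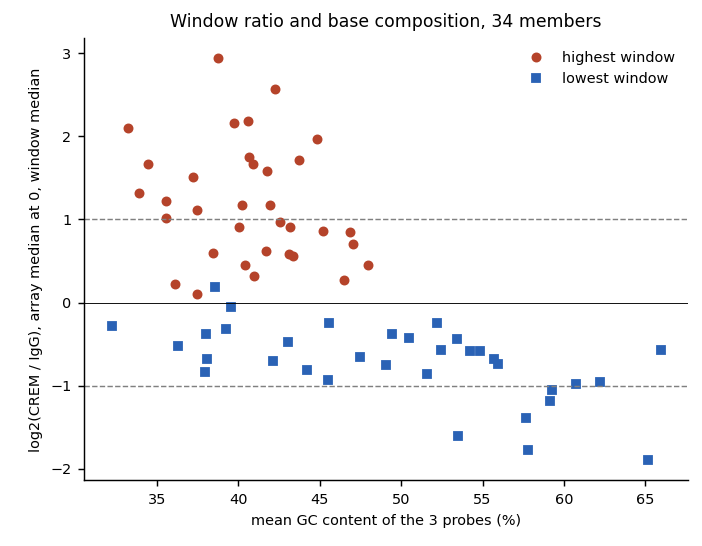
Window log2 ratio of CREM over IgG (y axis) against the mean GC content of its 3 probes in percent (x axis), for the highest (circles) and lowest (squares) window of the 34 genes; dashed lines mark -1 and 1. Windows at 1 or more lie between 33.2% and 44.8% GC and windows at -1 or less between 53.5% and 65.2%.

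For 21 of the 34 genes the RefSeq start could be placed by an exact match of a probe, and the position of the signal could be compared with 10299 genes placed in the same way. Between 500 and 200 bp upstream the 20 probes of these genes, from 13 genes, had a median of 1.23, and 65.0% reached 1, against 20.7% over all placed genes. Between 1000 and 500 bp upstream 42.9% of 28 probes reached 1, against 17.9%. From 200 bp before to 200 bp after the start the median was -0.25, 17.1% of 41 probes reached 1 and 22% reached -1. Over all placed genes it was -0.40, with 9.25% and 27.2%. From 500 to 1000 bp after the start 25% of 48 probes reached 1, against 15.6%. The members' probes thus stood above all genes' mainly upstream, while near the start the median was below 0 in both. Between 4000 and 2000 bp upstream their median was 0.10, against -0.02. After removal of the GC trend, 55.0% of the probes between 500 and 200 bp upstream still reached 1, against 19.5%, while the median within 200 bp of the start turned to 0.10 for the members and was -0.06 for all genes.

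**Figure D4:**
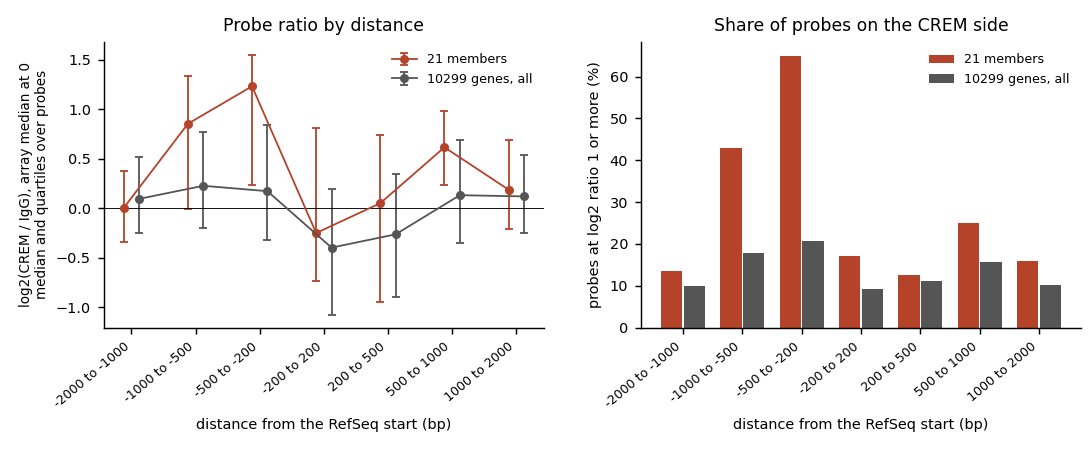
Left, median log2 ratio of CREM over IgG with quartiles over probes, by distance in bp from the RefSeq start, for 21 of the genes (red) and for 10299 genes (grey); right, the percent of probes at 1 or more in the same bins. The red bar reaches 65.0% between 500 and 200 bp upstream, where the grey one is at 20.7%, and both medians are below 0 at the start.

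Probes of 1 gene are not independent, so the upstream stretch was also averaged per gene. 18 genes had a probe between 1000 and 200 bp upstream, and in 8 of them (44.4%) the mean reached 1, against 15.3% of 8941 genes. They were Eprs (2.30, 4 probes), Qars (1.58, 1 probe), Mars2 (1.54, 4 probes), Tars2 (1.44, 1 probe), Mars (1.29, 1 probe), Nars2 (1.19, 5 probes), Tars (1.09, 3 probes) and Gars (1.08, 3 probes). Aars at 0.90 and Sars at 0.86 came next. The lowest were Fars2 at -1.13 and Yars at -0.68, each from 1 probe. Mars and Tars2, which have no called window, were thus high in this stretch on a single probe each. The probe of Tars2 was not above background in IgG, and that of Mars was.

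The mean within 200 bp of the start was below that of the flanks, 200 to 1000 bp on both sides, in 16 of the 21 genes (76.2%), and in 72.7% of all genes so placed. The median difference was -0.71, against -0.47; with the GC trend removed it was -0.35, against -0.20. The start probes were richer in GC than the flanks in most of these genes, and the values of single genes below include the GC trend. The difference was largest in Mars2, at -2.84 with 1 probe at the start, followed by Ears2 at -2.21, Farsa at -2.03, also with 1, Mars at -1.81 and Tars at -1.44. In Nars2 the probes at -408, -285 and -164 bp read 1.74, 1.35 and 1.95, those at -30 and 88 bp read -0.04 and -0.20, and those at 244 and 398 bp read -0.95 and -1.13. The ratio then rose to 2.09 at 576 bp, on a probe not above background in IgG. In Gars the probes read 1.54 at -336 bp, 0.97 at -158 bp, -1.70 at 127 bp and 1.03 at 772 bp. Its difference went from -1.04 to -0.29 with the GC trend removed, and that of Tars from -1.44 to -0.66. Tars had 1.56 at -458 bp, -1.04 at -64 bp and 0.95 at 450 bp. In Sars2, the largest of the 5 exceptions, the mean at the start was 0.52 above that of the flanks.

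**Figure D5:**
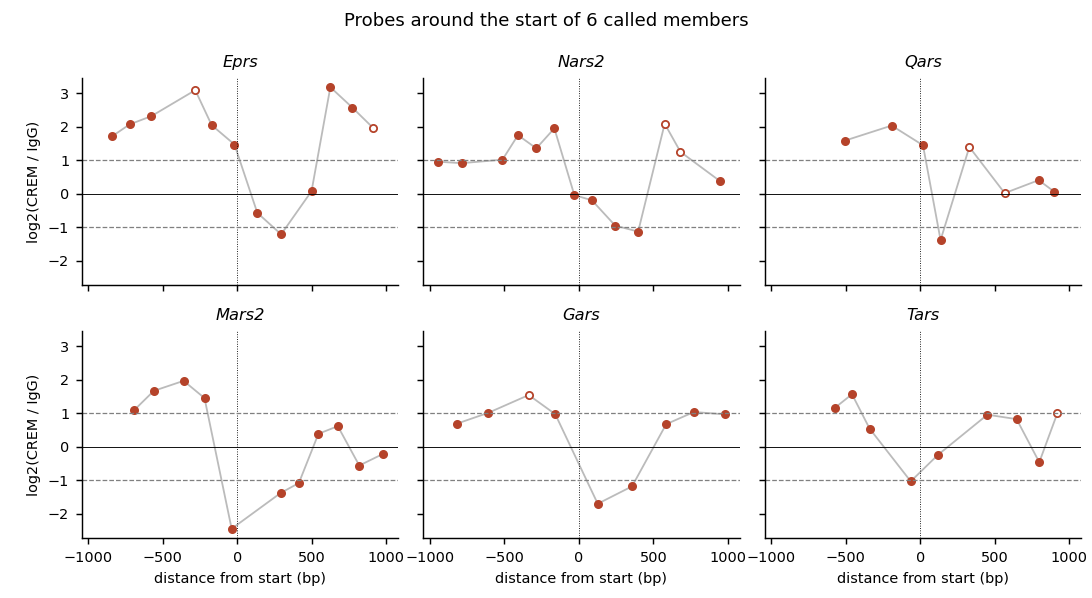
Probe log2 ratios of CREM over IgG within 1000 bp of the RefSeq start (dotted line) of Eprs, Nars2, Qars, Mars2, Gars and Tars, chosen after their values were seen; filled points were well above background in both channels, open points were not, and dashed lines mark -1 and 1. Each of the 6 genes is high before the start and has a probe below -1 near or after it, at -38 bp and -2.45 in Mars2.

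Motifs were searched on both strands in the probes of each highest and lowest window. The full CRE, TGACGTCA, was in no highest window of the 34. The core, TGACG or CGTCA, which the full CRE contains, was in the highest window of 5 of the 18 called genes (27.8%: Eprs, Yars2, Sars2, Aars and Lars2) and in 0 of the 16 not called. Over all genes it was in 10.6% of those called and 5.41% of those not called. The lowest window held a core in 6 of the 34 genes (17.6%: Dars, Eprs, Hars, Iars, Mars and Pars2), against 9.65% of all genes, so cores were as frequent on that side. In highest windows the core probe read 2.78 in Yars2, 2.71 in Sars2, 2.57 in Eprs, 1.62 in Aars and -0.31 in Lars2. Of these probes only that of Sars2 was not above background in IgG. In lowest windows it read -2.24 in Dars, -1.24 in Mars, -0.86 in Iars, -0.84 in Pars2 and 1.47 in Eprs. The reading in Hars is not reported here. The motif TGATGNAA, which ATF4 and C/EBP partners recognise at amino acid stress genes, was in the highest window of 1 called gene (Nars) and 1 not called (Iars), against 3.23% and 3.51% of all genes. In the RefSeq promoters, 250 bases before to 50 after the start, 25 of the 35 genes were in the table. The core was in 10 of them (40.0%), against 23.0% of 27025 genes. Among the 10, Eprs, Sars2, Nars2, Wars2, Yars and Tars were called on the CREM side, beside 34.5% of all genes. Mars, Ears2, Aars2 and Farsb were not. Of the measured members in the table without a core, Mars2, Gars, Aars, Kars, Qars, Lars2 and Yars2 were called. Dars, Iars, Iars2, Sars, Tars2, Farsa and Fars2 were not, so members with and without a core were called alike. TGATGNAA was in 5 of the 25 (20%: Yars, Gars, Aars, Iars and Tars), against 4.51%. The full CRE was in 0, against 2.03% of all genes, and the palindrome of NRF1 in 0, against 1.07%. A match describes the letters and not a bound site.

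The wider tRNA genes, 102 measured of 108 listed, were called on the CREM side in 48 cases (47.1%, against 34.5% of all genes) and on the IgG side in 27 (26.5%, against 33.7%). Among the methylating enzymes 13 of 21 were called (61.9%), with Trmt2a at 2.27 and Trmt5 at 1.92 the highest of bright windows, and Trmt6 at -1.20 the lowest. Among enzymes of other base changes 19 of 40 were called (47.5%). Qtrt2, a subunit of the queuine transferase, had 2.95 and Dus4l, a dihydrouridine synthase, 2.59, while Yrdc had -1.89. End processing and splicing had 10 of 23 (43.5%), with Rpp14 of RNase P at 2.43 and Elac2, which trims the trailing end, at 1.30, and with Pop5, also of RNase P, at -1.61. Of 7 scaffold and editing genes 2 were called (28.6%, below the share of all genes), among them Aimp1, a scaffold of the multisynthetase complex, at 1.65. Eef1e1 of the same complex had 0.61 and a lowest window of -1.23. Among further synthetases Rars2 had 1.08, and Tarsl2 had a lowest window of -1.67. Of 6 genes of amidation, formylation and selenocysteine 2 were called (33.3%, near that share). Pstk had 0.11, and Mtfmt, which formylates the initiator tRNA of mitochondria, had a lowest window of -1.54. The export receptor gene Xpot was not called.

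The calls depend on how spots are corrected, filtered and normalised. With normexp background correction, which shrinks the ratios of dim spots, 9 of the 34 had a CREM call and 0 an IgG call. The shares of all genes were 16.2% and 3.7%. This setting used signals without dye normalisation, centred on the array median, and windows of bright probes moved too. The highest window of Nars2 went from 1.74 to 0.77 and that of Aars from 1.18 to 0.54, while that of Tars rose from 1.17 to 1.44. Of the 18, Aars, Cars, Gars, Kars, Lars2, Nars, Nars2, Sars2, Wars and Wars2 fell below 1, 8 remained, and Vars reached 1.24. With the authors' deposited values, 11 remained (all genes 17.3%) and 5 were called on the IgG side (21.7%). Cars, Gars, Kars, Lars2, Nars, Rars and Wars were lost there. Where only probes above background in both channels were used, 13 remained (all genes 20.8%). Trnt1, Eprs, Yars, Yars2, Mars2 and Qars were called on the CREM side under each of 11 alternative treatments of spots and windows. Their lowest values over these were 2.79, 2.22, 1.02, 1.70, 1.10 and 1.10, in the same order.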

How the data were processed

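Spots were quantified by Agilent Feature Extraction 10.7.1.1, and probes carry positions of mm9 (NCBI build 37), per the file headers. The deposited scanner files hold an intensity for each channel; the processed signal is background-subtracted and dye-normalised, and LogRatio is log10 of Cy5 over Cy3, per the file headers. The authors' deposited log2 values were recovered, to within 5e-08, as mean signal less median background with limma's within-array loess, in scanner row order. R 2.10.1 and limma are named in the submitters' processing notes.

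Here, log2 of processed Cy5 over Cy3 was centred on each array's median (shifts of 0.02). Control spots, outlier spots, probes without a position and probes dim in both channels were left out, which left 454681 probes, 915 of them of members. Array gene names that are no current RefSeq symbol were updated through an unambiguous synonym, and Mars is Mars1 in RefSeq. Starts were placed by exact match of a probe in a RefSeq promoter of GRCm38.p6, without converting coordinates. Every member is named; of the wider tRNA list, the 2 highest genes and the lowest gene of each group with 3 bright probes; and neighbours within 1000 bp of a called window or named for its probes. An item that this rule picks is not reported here. The members and lists were chosen with earlier results of these data known. Alternatives were normexp (offset 50), loess, the authors' values, removal of the GC trend, other dim filters, windows of 5 probes, means, starts at most 300 or 1000 bp apart, thresholds of 0.8 and 1.5, and other naming. Window calls and start placement were tested on simulated data. R 4.3.3, limma 3.58.1, Python 3.11.15, numpy 2.4.6 and pandas 2.3.3 were used.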

Additional observations from a re-analysis of the deposited data

How the results depend on the processing

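The count of 18 genes called on the CREM side became 9 with normexp, 11 with within-array loess, 11 with the authors' deposited values and 10 with windows of 5 probes, where 16.2%, 17.1%, 17.3% and 19.8% of all genes were called. The count of 6 on the IgG side became 0 with normexp, 1 with the GC trend removed, 2 with windows of 5 probes, 12 at a threshold of 0.8 and 3 at 1.5, beside 3.7%, 12.8%, 17.7%, 46.7% and 13.6% of all genes. The median highest window of 1.06 became 0.60 with normexp, 0.80 with loess, 0.80 with the authors' values, 0.91 with probes bright in both channels and 0.84 with windows of 5 probes, beside 0.49, 0.53, 0.54, 0.55 and 0.51 over all genes. The 48 other tRNA genes called became 24 with normexp and 31 at a threshold of 1.5, beside 16.2% and 14.1% of all genes. The highest window of Nars changed sign, to -0.10, with probes bright in both channels, where its dim probes leave. Of 816 values of single genes under the alternatives 546 moved by less than the spread of control spots and 269 moved by more. The 1 left is the called window of Nars that changed sign. Windows short of a call also crossed 0 and are counted by how far they moved. For example, the lowest window of Eprs went from -0.57 to 0.12 with the GC trend removed. The split of CREM to IgG calls, 18 to 6, was 9 to 0 with normexp, 16 to 1 with the GC trend removed and 11 to 5 with loess; the cause was not tested. No paired analysis was possible because each array is 1 sample with its own probes, and no replicate could be left out. In 10 of the 18 called windows at least 1 probe was dim in IgG. All 3 probes were bright in 44.4% of the 18, against 28.5% of all called genes. Cars, Kars, Nars, Sars2 and Wars lost the call where only probes bright in both channels were used.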
